A study of Mus musculus with 17 samples.

Results

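The comparison covered 12 of the 17 libraries of the series: the 6 titled as treated with a monoclonal antibody against claudin-1 (CLDN1 mAb, here the antibody mice) and the 6 titled Vehicle Control (the vehicle mice). All 12 were male C57BL/6J mice of 32 weeks, each giving 1 library from total RNA of non-tumorous liver. Both groups had received the liver carcinogen diethylnitrosamine (DEN) at 100 mg/kg in week 1 and were kept on CDA-HFD, a high-fat diet without choline and with defined amino acids. The antibody mice were given 500 µg of antibody into the peritoneum 1 time per week for 16 weeks, and the vehicle mice were given phosphate-buffered saline (PBS) on the same schedule. No group used here received a control antibody, so binding to claudin-1 and the injection of any antibody cannot be told apart. The 5 regular diet mice of the series were of the same strain, sex and age and had no treatment. They entered only the gene filter and the shared estimate of spread, and are quoted as a reference level.

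Claudin-1 is a membrane protein of tight junctions, and on hepatocytes part of it lies outside the junctions, where an antibody can reach it. It also serves as an entry factor for hepatitis C virus. The diet used here blocks the export of triglyceride from hepatocytes, because the liver needs choline to make the phosphatidylcholine that coats very-low-density lipoprotein. Fat then accumulates, hepatocytes die, macrophages gather around lipid, and stellate cells lay down collagen, while DEN adds mutations from which tumours grow. Antibodies to claudin-1 have been studied as a candidate treatment of liver fibrosis and liver cancer, and the comparison asks what it alters in the liver that surrounds the tumours.

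Sequencing depth, estimated from the smallest step between low values, lay between 27.7 and 55.6 M fragments per antibody library and between 36.01 and 59.5 M per vehicle library (41.6 ± 9.57 and 48.5 ± 8.19 M, SD, n = 6 each). The groups did not differ detectably in depth (two-sided exact permutation p = 0.214) or in the deposited total (39.9 ± 3.43 against 35.4 ± 5.53 M, exact permutation p = 0.136). Vehicle mice 3, 4 and 6 had the lowest totals of the 12, at 30.8, 31.3 and 29.7 M, against 35.4 to 42.8 M in the others. The part of the totals in the patterns of these mice below was not tested. Mitochondrial transcripts made up 2.29 to 4.18% of the total in antibody mice and 2.10 to 6.18% in vehicle mice, with vehicle mouse 1 highest. That mouse also lay farthest from the others of its group. Its root-mean-square distance was 1.05 on the log2 scale, against 0.484 to 0.783 for the antibody mice. Regular diet mouse 1 lay at 1.41 by this measure, against 0.596 to 0.634 for the others of its group. Its deposited total was 74.6 M, against 48.2 to 51.2 M. Through the shared spread, regular diet mouse 1 enters the SE and limma p-values below. Alb, which encodes albumin, was listed at 0 in all 12 libraries, as can happen where an estimate failed. Markers of hepatocytes without a failed estimate in some libraries summed to 1012229 to 1802726 normalized counts with antibody and 435901 to 1721175 with vehicle. Library codes in the labels formed 2 runs, 25 to 30 and 36 to 42, each with 3 antibody and 3 vehicle mice. The labels do not say what a code marks.

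On the first principal component of the 12 livers, with 46.6% of the variance, the vehicle mice took up both ends. Vehicle mice 1 and 2 were at -89.9 and -53.5, mouse 5 was at 7.49, and mice 3, 4 and 6 were at 54.1, 76.6 and 94.8. The antibody mice lay inside that span, from -63.7 to 35.2. Within the antibody group, the 3 mice of codes 25 to 30 were at -63.7 to -28.2 and the 3 of codes 36 to 42 at -17.1 to 35.2. The groups overlapped on this axis and on the second component, with 14.8% of the variance.

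**Figure D1:**
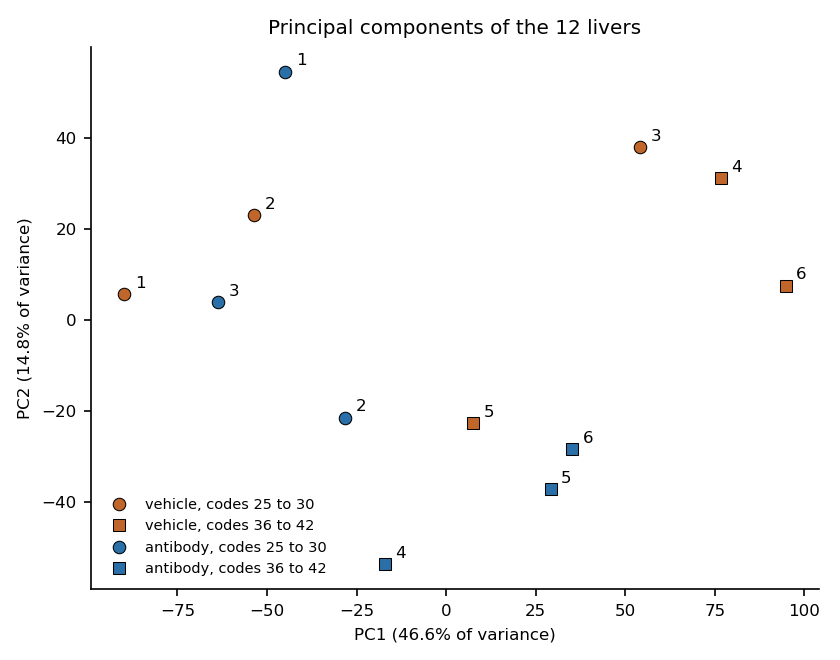
Scores of the 6 vehicle (orange) and 6 antibody (blue) livers on principal components 1 and 2 of log2(value + 1), with circles for library codes 25 to 30, squares for codes 36 to 42, and numbers giving the mouse within its group. Vehicle mice span PC1 from -89.9 to 94.8, and antibody mice lie between -63.7 and 35.2.

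No gene passed the test of antibody against vehicle. Of 18624 genes tested with limma, 0 (0%) had an adjusted p under 0.05, and the smallest adjusted p was 0.659. At an unadjusted p under 0.05, 805 genes (4.32%) were higher with antibody and 586 (3.15%) were lower. Values of the 6 antibody mice lay wholly above those of the 6 vehicle mice for 12 genes (0.0644%) and wholly below for 48 (0.258%). The median log2 fold change of all genes was -0.05, and 44.3% of genes were above 0. Every gene below is therefore given with its values as a description, and its adjusted p is 0.659 or more. The counts at an unadjusted p turned on the setting. In a fit of only the 12 antibody and vehicle libraries, 834 genes were higher and 833 lower. With libraries scaled to 1 total, 380 were higher and 1380 lower. These counts also turned on single vehicle mice. They were 438 higher and 303 lower without vehicle mouse 3, 428 and 252 without mouse 4, and 428 and 330 without mouse 6, against 1423 and 1756 without mouse 1 and 1242 and 1000 without mouse 2. Leaving out antibody mouse 2, 3 or 4 gave 529 and 430, 492 and 357, or 453 and 358. When each library was weighted in limma by how closely it followed its group, a setting chosen after seeing the data, 4877 genes passed (2175 higher and 2702 lower, smallest limma adjusted p = 0.0143). Those weights were lowest for vehicle mouse 1 (0.187), antibody mouse 1 (0.403) and vehicle mouse 2 (0.410) and between 0.839 and 2.54 for the other libraries.

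**Figure D2:**
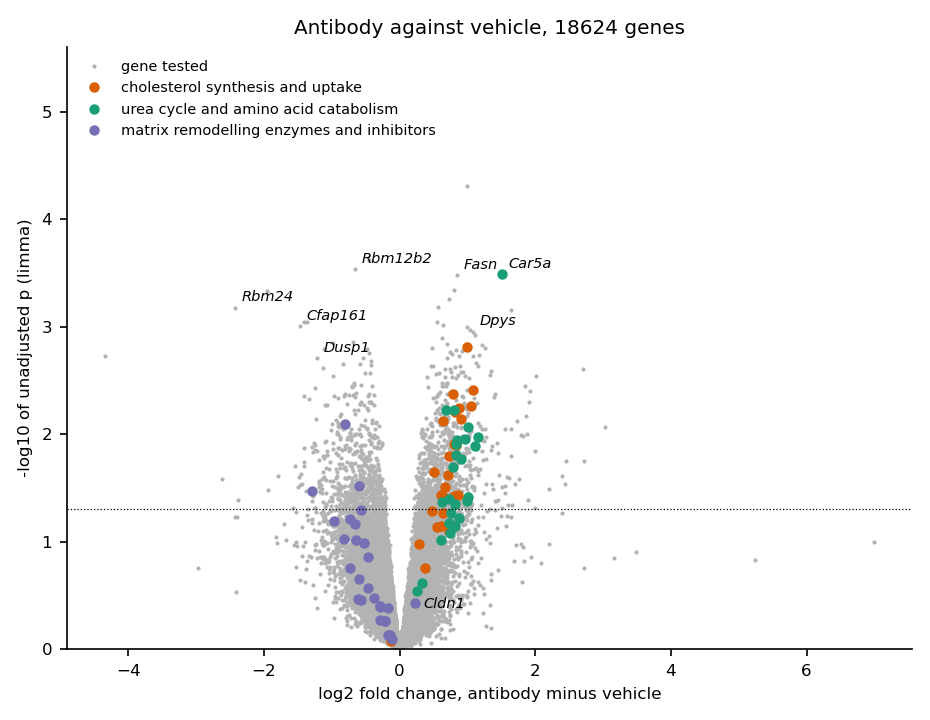
Each point is a gene tested, with the log2 fold change of antibody minus vehicle on the x axis and -log10 of the unadjusted limma p on the y axis. The dotted line marks an unadjusted p of 0.05, coloured points are members of 3 gene lists, and no gene passes after adjustment (smallest adjusted p = 0.659).

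Cldn1 itself, the gene of the antibody's target (chromosome 16, 26356642 to 26371841), stood between 2435 and 5043 normalized counts (median 4116) with antibody and between 1033 and 8189.8 (median 3949) with vehicle. The antibody mice all lay within the range of the vehicle mice, and the log2 fold change was 0.26 ± 0.36 (SE, n = 6 each; limma adjusted p = 0.844). It was -0.13 among codes 25 to 30 and 0.65 among codes 36 to 42, and -0.08 without vehicle mouse 6, the lowest library. Regular diet mice were at 6831 ± 1395 (SD, n = 5). Of 25 claudins and other junction genes tested, 11 were above 0 and 14 below, with a median of -0.03, near that of all genes; the median was 0.09 without vehicle mouse 4 and 0.02 without antibody mouse 1. Cldn2, a claudin that forms pores for small cations, stood between 5967 and 10177 normalized counts (median 8623) with antibody and between 3049 and 9301 (median 5626) with vehicle. Its log2 fold change was 0.65 ± 0.24 (unadjusted p = 0.0167), and Gjb1, the main gap junction gene of hepatocytes, was at 0.63 ± 0.30.

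Among the genes higher with antibody, the smallest p-values belonged to genes of hepatocyte metabolism and to several of general cell functions. Car5a, a mitochondrial carbonic anhydrase that supplies bicarbonate to the urea cycle, was at 1686 ± 471 against 683 ± 435 (mean ± SD, antibody against vehicle). Vehicle mice 4 and 6 were lowest for Car5a and vehicle mice 2 and 5 were within the antibody range, so the groups overlapped (log2 fold change 1.51 ± 0.34, adjusted p = 0.659). Dpys, the dihydropyrimidinase of pyrimidine breakdown (chromosome 15, 39768487 to 39857470), did not overlap: its antibody mice were at 4494 to 6495 and its vehicle mice at 1232 to 4419.9 (log2 fold change 1.09 ± 0.28). Sardh, which oxidises sarcosine in mitochondria, was at 20103, 25584 and 30236 with antibody (lowest, median and highest) and 6794, 12528 and 20686 with vehicle. Only vehicle mouse 5, at 20686, reached the antibody range for Sardh. Abcg8, which with Abcg5 exports sterols into bile, was at 2576, 3965 and 5308 against 1299.7, 1825 and 2830.1 normalized counts. Ces2a, a carboxylesterase of drug and lipid hydrolysis, had a log2 fold change of 0.73 ± 0.17.

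The other genes of this group were Tiam2, an exchange factor of Rac (0.80), Atg9a, a membrane protein of autophagy (0.56), Tango6 (0.55) and Dclre1a, a nuclease of crosslink repair (0.64). Of the 12 genes wholly above vehicle, the 6 largest that the naming rule admitted had log2 fold changes of 0.33 to 1.09. Besides Dpys they were Syne4, which links the nuclear envelope to kinesin (272, 336 and 443 against 172, 219.8 and 262), Ggt6, a gamma-glutamyltransferase relative (801, 898 and 1110.4 against 456, 620.1 and 793), Thtpa, a thiamine triphosphatase (894, 1018 and 1243 against 463, 768 and 877), Tmco4 (0.49) and Thada (0.33). These genes were picked by their order on these same mice, so the lack of overlap adds no support.

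The genes with the smallest p-values among those lower with antibody had varied roles. Dusp1, a phosphatase that switches off MAP kinases, was at 518, 704 and 879 with antibody (lowest, median and highest) and 855, 1264 and 3537 with vehicle. Vehicle mice 1 and 4 were highest for Dusp1, at 3537 and 2709, and vehicle mouse 5 lay within the antibody range (log2 fold change -1.21 ± 0.33). Ddit4, an inhibitor of mTOR signalling induced by stress, was at 366 ± 101 against 582 ± 125 (-0.68 ± 0.18). Rbm24, an RNA-binding regulator of splicing best known from muscle, had the largest fold change of the genes named by the rule, -2.43 ± 0.59, at 2.78, 8.81 and 44.9 against 14, 61.7 and 151 normalized counts. The highest antibody mouse for Rbm24, mouse 6, exceeded 3 of the vehicle mice. Cfap161, a gene of motile cilia (chromosome 7, 83774101 to 83794880), lay at 13 to 18.5 in all antibody mice and was spread from 22.2 to 107 in vehicle mice. It was highest in vehicle mice 3 and 4 (88.5 and 107), and the groups did not overlap.

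Rbm12b2, a putative RNA-binding protein gene, had the smallest p of the lower genes admitted, at 212 ± 22.3 against 336 ± 44 (log2 fold change -0.65 ± 0.15), with no overlap. Lsm11, a component of the U7 particle that processes histone transcripts, was at 149.6, 174 and 186 against 199, 238 and 267 and did not overlap. Nedd4l, a ubiquitin ligase that controls sodium channels, was at 1592, 1717 and 2078 against 2104, 2336 and 2867 with no overlap, and Wsb1, a receptor subunit of another ubiquitin ligase, was at 1703, 1843 and 2013 against 2119, 2759 and 3537, also without overlap. Zfp641 (-0.71), Fam129c (-0.84) and Far2, a reductase that makes fatty alcohols (-0.68), lay wholly below vehicle as well. Like the higher genes, these genes and Cfap161 were picked by their order on these same mice, so the lack of overlap adds no support. Ifitm6 (-0.98), Clca3a1 (-1.12) and Arl6, a GTPase of cilia (-0.54), overlapped. For 39 of the 120 genes named by the rule, exons overlap those of another annotated gene, and strand was not stated, so their reads may not be separable. Car5a, Tiam2, Atg9a, Abcg8, Sardh, Acss2, Rbm12b2, Dusp1, Nedd4l, Ccn2, Fam129c and Far2 are among them.

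**Figure D3:**
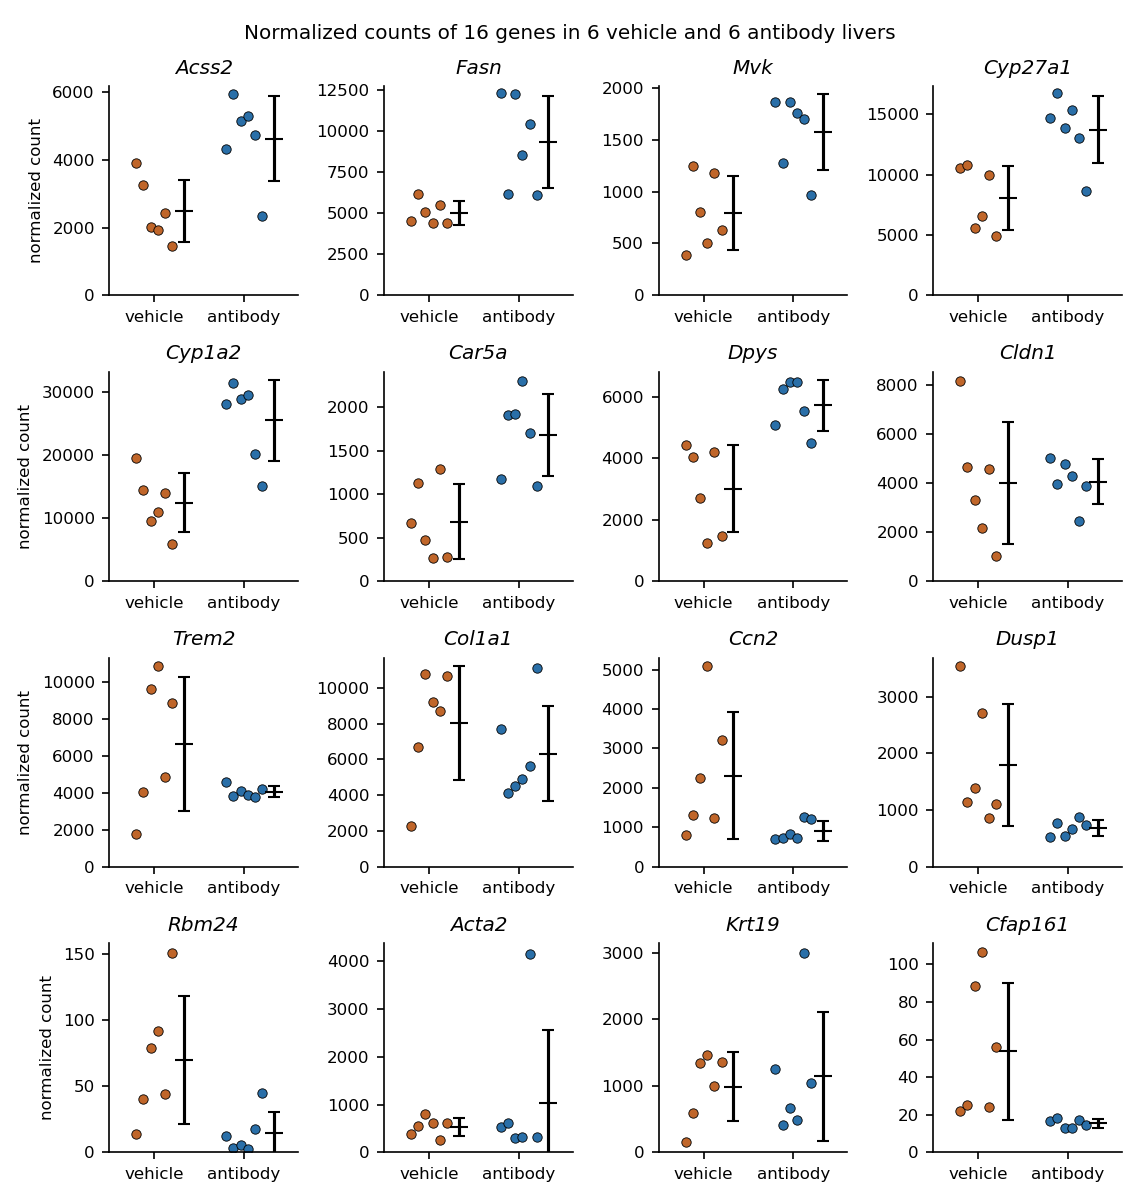
Normalized counts of 16 genes, with 1 point per mouse (vehicle orange, antibody blue, ordered by mouse number) and the mean ± SD beside each group (a bar that would pass below 0 is cut at 0). Dpys and Cfap161 do not overlap between groups, while the vehicle points of Trem2, Ccn2 and Dusp1 spread far more widely than the antibody points, and Acta2 and Krt19 each hold 1 high antibody mouse, mouse 5.

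Genes of cholesterol synthesis and uptake lay mostly above 0, that is, higher with antibody. Of 26 tested, 25 were above 0 and 18 had an unadjusted p under 0.05 (0 lower), with a median log2 fold change of 0.73 against -0.05 over all genes. None passed after adjustment, and the count of 18 was 11 without vehicle mouse 4 or 6. Over all genes tested, 4.32% were higher and 3.15% lower at an unadjusted p under 0.05. These shares apply beside the counts of every list below. Mvk, mevalonate kinase, an early enzyme of the pathway (chromosome 5, 114444269 to 114460591), was at 969, 1732 and 1872 with antibody (lowest, median and highest) and 392, 716 and 1248 with vehicle. Vehicle mice 2 and 5 (1248 and 1184) lay above antibody mouse 6 (969), so the groups overlapped, and the log2 fold change was 1.08 ± 0.32 (adjusted p = 0.659). Regular diet mice were at 1639 ± 1117 for Mvk. Because each library was made from a piece of whole liver, fewer cells of a type and less RNA per cell cannot be told apart in any of the lists below.

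Genes of fatty acid and triglyceride synthesis had 19 of 24 above 0, 10 higher and 1 lower at an unadjusted p under 0.05, and a median of 0.47. Fasn, fatty acid synthase (chromosome 11, 120805846 to 120824547), stood between 6139.5 and 12355 normalized counts (median 9518) with antibody and between 4390.4 and 6178 (median 4796) with vehicle. Only antibody mice 2 and 6 (6175 and 6139.5) came within the vehicle range, at its upper end beside vehicle mouse 2 (6178). The log2 fold change was 0.85 ± 0.19 (adjusted p = 0.659), and it was 0.91 among codes 25 to 30 and 0.79 among codes 36 to 42. Regular diet mice stood far above both groups at 36479 ± 6175. Acss2, which makes acetyl-CoA from acetate for lipid synthesis, was at 2353, 4936 and 5962 against 1455, 2221 and 3922 (0.91 ± 0.25). Me1, the malic enzyme that supplies NADPH for the same synthesis, lay on the other side, at 980.2, 1120.1 and 1759 against 1065, 1629.6 and 2680.1 (-0.53 ± 0.22).

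Promoters of Fasn, Acss2 and Mvk are shown because these genes stood for the cholesterol and fatty acid lists among the named genes. Each window runs from 250 bases before to 50 after the RefSeq start (assembly GRCm38.p6, the same build as mm10), written 5′ to 3′ on the gene's strand, with CCAAT or its reverse complement ATTGG in capitals:
Fasn, chr11:120824498-120824797, minus strand: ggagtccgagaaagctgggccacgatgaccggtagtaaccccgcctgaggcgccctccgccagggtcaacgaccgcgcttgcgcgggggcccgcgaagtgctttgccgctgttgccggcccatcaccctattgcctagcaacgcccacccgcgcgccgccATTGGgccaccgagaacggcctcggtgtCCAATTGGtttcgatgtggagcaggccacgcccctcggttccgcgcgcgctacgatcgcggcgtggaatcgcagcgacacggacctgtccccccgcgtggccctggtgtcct
Acss2, chr2:155517793-155518092, plus strand: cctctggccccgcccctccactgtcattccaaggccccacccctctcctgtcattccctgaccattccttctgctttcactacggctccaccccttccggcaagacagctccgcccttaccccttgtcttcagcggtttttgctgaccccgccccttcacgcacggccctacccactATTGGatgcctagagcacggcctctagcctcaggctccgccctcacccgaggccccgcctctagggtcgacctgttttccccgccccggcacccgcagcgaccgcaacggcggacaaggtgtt
Mvk, chr5:114444019-114444318, plus strand: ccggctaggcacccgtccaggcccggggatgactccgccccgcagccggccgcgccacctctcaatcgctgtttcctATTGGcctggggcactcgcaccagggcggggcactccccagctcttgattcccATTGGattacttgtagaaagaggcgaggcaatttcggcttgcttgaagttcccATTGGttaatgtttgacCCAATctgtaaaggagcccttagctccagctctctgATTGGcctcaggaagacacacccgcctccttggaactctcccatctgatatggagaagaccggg
CCAAT boxes are bound by NF-Y, a partner of the sterol-regulated SREBP factors. Fasn held 3 matches on either strand (a pair of them overlap in the longer run of capitals), Acss2 held 1 and Mvk held 5. CCAAT was found for 17 of 18 cholesterol genes and 13 of 19 fatty acid genes that have a promoter in the RefSeq table (94.4 and 68.4%), against 41.1% of the 27025 genes of that table and 37.4% of its 32851 promoters. The sterol element core TCACNCCAC was found for 1 of 18 and 1 of 19 genes, against 1.44% of all genes and 1.24% of all promoters. The E-box CACGTG was found for 4 and 3 genes, against 8.09% of all genes and 7.15% of all promoters. None of the 3 printed promoters held TCACNCCAC or CACGTG. A match describes letters in this window only.

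Oxidation and lipoprotein genes also lay mostly above 0, and lipid droplet genes did not. Of 25 fatty acid oxidation and ketogenesis genes, 21 were above 0, but only 1 had an unadjusted p under 0.05 in that direction, and the median was 0.32. Hadh, a dehydrogenase of beta-oxidation, was at 10559, 13245 and 16260.5 against 7688, 9307 and 13781 (0.43 ± 0.18). Fgf21, a hormone that the liver secretes under metabolic stress, lay on the other side, at 485, 821 and 2433 against 920.0, 2167 and 4328 (-1.11 ± 0.42), with antibody and vehicle mice overlapping. Lipid droplet and fatty acid uptake genes were evenly split, 11 above and 11 below 0. Their named members pointed apart: Slc27a5, a fatty acid and bile acid CoA ligase, was at 1.02 ± 0.36, and Hilpda, which inhibits lipolysis at droplets, was at -0.73 ± 0.25 (206, 227 and 283 against 267, 378 and 675 normalized counts). Of 18 lipoprotein genes, 17 were above 0 and 7 had an unadjusted p under 0.05, with a median of 0.59. The lipoprotein count was 4 without vehicle mouse 3, 4 or 6 or antibody mouse 2 or 3, and that of oxidation genes 0 without vehicle mouse 3 or 4 or antibody mouse 3 and 8 without vehicle mouse 5. Scarb1, the receptor that takes cholesterol ester from high-density lipoprotein, was at 8486, 10739 and 12941 against 4924, 7068 and 10084 (0.58 ± 0.19).

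The list with the highest median was that of the urea cycle and amino acid catabolism, a set of genes that hepatocytes express almost alone. All 25 members were above 0, 17 of them with an unadjusted p under 0.05 (4.32% of all genes were higher at that p), and the median was 0.82. The count was 11 without vehicle mouse 4 or 6. Aldh4a1, of proline breakdown, was at 11057, 15872 and 19267 against 6182, 9507 and 14106 (0.68 ± 0.22). Choline, methionine and single-carbon genes had 18 of 23 above 0 and 10 higher at an unadjusted p (median 0.61; count 5 without vehicle mouse 3 or 6). Ahcy, which clears the S-adenosylhomocysteine left by methylation, was at 7191, 12027 and 13895 against 4194, 6397 and 9671 (0.83 ± 0.22), with overlap from vehicle mice 1, 2 and 5. Chka, choline kinase, which starts the making of phosphatidylcholine and so uses the nutrient that the diet lacks, lay below 0, at 1599, 2038 and 3739 against 2331, 3716 and 5697 (-0.75 ± 0.26). Of 17 genes of gluconeogenesis and glycogen, 15 were above 0 and 4 had an unadjusted p under 0.05 (median 0.49; count 2 without vehicle mouse 3, 4 or 6 and 9 without vehicle mouse 1), led by Pcx, pyruvate carboxylase (0.59 ± 0.19), and Gys2, the liver glycogen synthase (0.77 ± 0.29).

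Bile acid genes had 19 of 21 above 0 and 12 with an unadjusted p under 0.05 with a median of 0.75, and the count was 6 without vehicle mouse 6. Cyp27a1, the sterol 27-hydroxylase that opens the alternative pathway of bile acid synthesis, stood between 8644 and 16744 normalized counts (median 14254) with antibody and between 4879 and 10803 (median 8249) with vehicle. Only antibody mouse 6 fell inside the vehicle range for Cyp27a1, and the log2 fold change was 0.81 ± 0.26 (adjusted p = 0.659). Xenobiotic cytochromes had 21 of 24 above 0 and 11 with an unadjusted p under 0.05 (median 0.57; count 6 without vehicle mouse 3 or antibody mouse 3 or 4). Cyp1a2, which metabolises caffeine and aromatic amines around the central vein, was at 15012, 28413 and 31399 with antibody (lowest, median and highest) and 5923, 12486 and 19478 with vehicle (1.09 ± 0.30). Cyp2c54 had a larger fold change, 1.91 ± 0.60, but vehicle mouse 1 stood at 4042 beside 1178 in mouse 2, and near-identical Cyp2c copies make its counts uncertain. The largest change of the list ran the other way, in Cyp2b10, at -2.42 ± 1.20 (limma adjusted p = 0.659). Of 17 sex-biased liver genes, 11 were above 0, with 6 past an unadjusted p of 0.05 (count 2 without vehicle mouse 3, 4 or 6 or antibody mouse 2, 3 or 4), among them Cyp2d9 (1.08) and Cyp7b1 (1.02), both male-biased.

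Markers of hepatocyte identity were also mostly above 0, 19 of 21 with a median of 0.43 and 3 with an unadjusted p under 0.05 (count 7 without vehicle mouse 2). Of the 21, 2 had failed estimates. These include Trf, at 6.99 because it was listed at 0 in vehicle mice 1, 2 and 3 and antibody mouse 3. Asgr2, a subunit of the asialoglycoprotein receptor, was at 6637, 10138 and 11645 against 3752, 6438 and 8767 (0.62 ± 0.25). Vehicle mice 3, 4 and 6 were lowest for these markers, at list levels of -0.61, -0.55 and -0.88 (the median of the members' log2 values, each minus its mean over the 12 livers). The same 3 mice were lowest for the urea, bile acid and cholesterol lists, for example -0.71, -1.19 and -1.47 for urea genes, where the antibody mice lay at -0.06 to 0.71. The part of the hepatocyte markers in the metabolic lists was not tested. All 30 respiratory chain genes were above 0 by small amounts (median 0.27, 3 with an unadjusted p under 0.05, count 0 without vehicle mouse 3, 4 or 6 or antibody mouse 2, 3 or 4 and 7 without vehicle mouse 2), with Sdhd at 0.41 ± 0.18 and Atp5a1 at 0.38 ± 0.17. Acute phase genes had 21 of 24 above 0 (median 0.40; count past an unadjusted p of 0.05 1, but 0 without vehicle mouse 3, 4 or 6 or antibody mouse 1, 2, 3 or 4 and 7 without vehicle mouse 1), with Saa4 at 0.76 and Saa2 at 1.16; both belong to a family of near-identical genes.

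Clock genes had 12 of 18 above 0 (median 0.29). Cry2, a repressor of the clock, was at 0.46 ± 0.16 and Npas2, an activator, at -0.93 ± 0.41, where vehicle mouse 3 alone stood at 369.8; the time of day at which livers were taken is not given in the sources used here. Stress lists lay close to all genes. NRF2 targets had 16 of 25 above 0 and a median of 0.14, which was -0.04 when libraries were scaled to 1 total and -0.05 after quantile normalization. Abcc3, an efflux pump of conjugates, was at 0.40 ± 0.17, and Keap1, which holds NRF2 inactive, at 0.26 ± 0.13. Genes of the unfolded protein and integrated stress response had 10 of 23 above 0 (median -0.11), with Psat1, of serine synthesis, at -0.61 ± 0.24 and Herpud1, of protein disposal at the endoplasmic reticulum, at 0.45 ± 0.24.

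Genes of scar tissue stood lower with antibody on average, by less than the spread among mice. Of 30 fibrillar collagen and matrix genes, 28 were below 0, but 0 had an unadjusted p under 0.05, and the median was -0.32. Col1a1, the main collagen of scars (chromosome 11, 94936224 to 94953042), stood between 4106 and 11130.0 normalized counts (median 5255) with antibody and between 2299 and 10792 (median 8959) with vehicle, and its log2 fold change was -0.28 ± 0.35 (adjusted p = 0.826). The antibody mice lay within the vehicle range except mouse 6, at 11130.0, which was above it. Col1a2 was at -0.41 ± 0.29, Thbs1, an activator of latent TGF-beta, at -0.79 ± 0.43, and Fn1, fibronectin, on the other side at 0.44 ± 0.26. Regular diet mice were at 230.3 ± 76.6 for Col1a1, far under both groups. Without vehicle mouse 1 the list median was -0.58 and 6 members had an unadjusted p under 0.05. Among 27 matrix remodelling enzymes and inhibitors, 26 were below 0 and 3 had an unadjusted p under 0.05 (median -0.53), where 3.15% of all genes were lower at that p. The count was 1 without vehicle mouse 3, 4 or 6 and 12 without vehicle mouse 1. Adamts1, a secreted protease, was at 499, 616 and 1214 against 775, 1216 and 1771 (-0.81 ± 0.27), Plau, urokinase, at -0.60 ± 0.25, and Timp1 at -0.21 ± 0.34.

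Stellate cell and myofibroblast markers had 19 of 22 below 0 and 0 with an unadjusted p under 0.05 (median -0.29; -0.07 without vehicle mouse 6; count 5 without vehicle mouse 1). Lrat, which stores vitamin A in stellate cells, was at 315, 679.9 and 1036 against 355, 1306 and 2764 (-0.90 ± 0.47), and Vim, vimentin, at -0.68 ± 0.35. Acta2, the smooth muscle actin of activated stellate cells, was at 308, 436 and 4141 with antibody (lowest, median and highest) and 269, 578 and 801 with vehicle. A single library set its sign: antibody mouse 5 stood at 4141 against 308 to 613 in the other antibody mice, and the log2 fold change was 0.23 ± 0.63 with it and -0.33 without it. The same mouse held the highest Krt19, at 2997, and the highest values of the fat genes Adipoq (28.73) and Cfd (162.5). Of the mesothelial genes, Upk3b was at 524.6 in that mouse and 498.1 in vehicle mouse 6, while Wt1 (226.6) and Msln (411.3) were higher in vehicle mouse 4, at 519.8 and 833.2. The part of neighbouring tissue in the Acta2 value was not tested.

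Signalling lists linked to fibrosis and growth were shifted below 0. TGF-beta targets had 24 of 25 below 0 and 3 with an unadjusted p under 0.05 (median -0.34), where 3.15% of all genes were lower at that p. Ccn2, a matricellular gene induced by TGF-beta and YAP, stood between 708 and 1254 normalized counts (median 777) with antibody and between 791 and 5085 (median 1778) with vehicle. Vehicle mice 3, 4 and 6 were highest for Ccn2, at 2258, 5085 and 3209.7, vehicle mice 1 and 5 lay within the antibody range, and the log2 fold change was -1.10 ± 0.39 (adjusted p = 0.659). Inhba, a subunit of activin, was at -0.68 ± 0.25 and Tgfb1 at -0.32 ± 0.36. The Notch list had 20 of 21 below 0 and 3 with an unadjusted p under 0.05 (median -0.31), with its target Hes1 at 506, 657 and 1091 against 619, 1127 and 1465 (-0.58 ± 0.25) and Notch1 at -0.08 ± 0.27 (0.03 without antibody mouse 1). The TGF-beta count was 7 without vehicle mouse 1, and the Notch count was 1 without vehicle mouse 3 or 4 or antibody mouse 2, 3 or 4 and 7 without vehicle mouse 1. Sox9, a target of Notch and YAP and a marker of bile ducts, was at 630.4, 943 and 1616 against 1202, 1446 and 1599 (-0.56 ± 0.21).

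YAP and TAZ genes had 21 of 22 below 0 and 4 with an unadjusted p under 0.05 (median -0.35; count 7 without vehicle mouse 1). Yap1 itself was at 0.00 ± 0.18, and Sav1, the scaffold of the kinases that restrain YAP, at 768, 923 and 1018 against 978, 1253 and 1455 (-0.44 ± 0.14). The EGF receptor and MAPK list had 10 above and 16 below 0 of 26 (median -0.08, or -0.26 when libraries were scaled to 1 total, which moved the median of all genes to -0.23). At an unadjusted p under 0.05, 2 of its members were higher and 4 lower. Egfr, abundant in healthy hepatocytes, lay above 0, at 8578, 12915 and 18826 against 3253, 7336 and 16420.5 (0.98 ± 0.36), whereas Dusp1, a feedback gene, lay below. Vehicle mice 3, 4 and 6 were lowest for Egfr, and regular diet mice stood at 27621 ± 6281. TNF and NF-kappaB targets had 23 of 26 below 0 and 1 with an unadjusted p under 0.05 (median -0.19; count 0 without vehicle mouse 4 or 6 or antibody mouse 2 or 3 and 4 without vehicle mouse 1). Tnf was at -0.12 ± 0.27, Ier3 at -0.75 ± 0.33 and Ccl20, which attracts lymphocytes, at -1.23 ± 0.60. Genes of epithelial-mesenchymal transition had 19 of 23 below 0 (median -0.29; 0 with an unadjusted p under 0.05, but 7 without vehicle mouse 1), with Anxa2 at -0.31 ± 0.16.

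Proliferation genes showed no shift of the kind seen in the metabolic lists: 12 of 35 were above 0 and 0 had an unadjusted p under 0.05 in either direction (median -0.05). Mki67, a marker of cycling cells, was at 671, 787 and 1042 against 848, 1145 and 1438 (-0.41 ± 0.21), and Pcna, the replication clamp, at -0.16 ± 0.12. Targets of p53 had 18 of 20 below 0 and a median of -0.23. Cdkn1a, the cell cycle inhibitor p21, was at 693, 987 and 1362 with antibody (lowest, median and highest) and 1253, 1504 and 1727 with vehicle. Antibody mouse 6 reached the vehicle range for Cdkn1a, and the log2 fold change was -0.67 ± 0.22; Gadd45a was at -0.75 ± 0.33. Tumour and fetal-liver genes were mixed, 9 above and 14 below 0 (median -0.09; above 0 without vehicle mouse 6, antibody mouse 2 or antibody mouse 4). Glul (38909, 80149.9 and 95476 against 28550.1, 39833 and 68382; 0.81 ± 0.27) and Lgr5 (log2 fold change 0.90 ± 0.31), both Wnt targets of the hepatocytes around the central vein, lay above 0, and Afp, a fetal and tumour marker, was at 0.12 ± 0.35 with vehicle mouse 4 at 1090.0.

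Bile duct and ductular reaction markers had 17 of 21 below 0 and 1 with an unadjusted p under 0.05 (median -0.23; count 5 without vehicle mouse 1). Their summed level, with no marker at 0 throughout, was 51733 to 90637 with antibody and 55059.8 to 117955 with vehicle. Epcam was at 828, 1423 and 2169.7 against 639, 2206 and 3064 (-0.44 ± 0.35), Spp1, osteopontin, at -0.46 ± 0.23 and Krt19 at 0.18 ± 0.56. Krt19 turned to -0.17 without antibody mouse 5 and to -0.29 without vehicle mouse 1, which was lowest at 153.

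Macrophages that take up lipid and gather at scars are marked by Trem2, Cd9, Gpnmb and Spp1. Of 22 genes of this list, 21 were below 0 and 3 had an unadjusted p under 0.05 (median -0.48); the count was 0 without vehicle mouse 3 or 4 and 14 without vehicle mouse 1. Trem2, a lipid receptor of these cells (chromosome 17, 48346401 to 48354147), stood between 3772 and 4572 normalized counts (median 4001) with antibody and between 1762 and 10879 (median 6861) with vehicle. The antibody mice lay in a narrow band, vehicle mice 3, 4 and 6 lay far above it (9603, 10879 and 8890.4), mouse 5 just above (4832), mouse 2 inside, and vehicle mouse 1 lay below it (1762). The log2 fold change was -0.47 ± 0.33 (adjusted p = 0.712), or 0.02 among codes 25 to 30 and -0.97 among codes 36 to 42. Regular diet mice stood at 222 ± 49.9. Lpl, lipoprotein lipase, was at 18339.9, 20353 and 26063 against 20126, 34177 and 44263 (-0.57 ± 0.23), and Cd63, of lysosomal membranes, at -0.67 ± 0.29. At the level of the whole list the antibody mice lay at -0.35 to 0.02 and the vehicle mice at -0.81 to 0.87. Summed over 21 of its markers, none of them at 0 in all 12 livers, the list came to 393141 to 516188 normalized counts with antibody and 342426 to 830305 with vehicle. The marker left out of the sum had a failed estimate and stays in the list's counts and median. The hepatocyte markers ran the other way in the same mice, and the part of cell numbers in either was not tested.

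Other immune lists mostly had medians below 0, with few members past an unadjusted p of 0.05. Over all genes, 3.15% were lower at that p and 44.3% lay above 0. Counts of 0 or 1 per list are close to that share. Monocyte and neutrophil markers had 18 of 19 below 0 and 1 with such a p (median -0.52, with -0.06 among codes 25 to 30 and -0.85 among codes 36 to 42; count 0 without vehicle mouse 3, 4 or 6 or antibody mouse 2 or 4 and 5 without vehicle mouse 1 or 2). Ccr2, the receptor that brings monocytes into tissue, was at 966, 1319 and 1641 against 1178, 1924 and 3792 (-0.61 ± 0.27) and Cxcr2, of neutrophils, at -0.60 ± 0.30. Kupffer cell markers had 14 of 16 below 0 (median -0.21, but 0.11 among codes 25 to 30), with C6, a complement gene that hepatocytes also express, at 1.09 ± 0.43 and Nr1h3 at 0.37 ± 0.20. Cd163, a scavenger receptor of resident macrophages, was low in every mouse, at 6.15, 11.6 and 19.2 against 10, 15.4 and 37.3 (-0.66 ± 0.42). Markers of T and NK cells had 18 of 25 below 0 (median -0.23; -0.04 without vehicle mouse 3; 0.07 among codes 25 to 30 and -0.45 among codes 36 to 42; count 1, or 0 without vehicle mouse 3, 4 or 6 or antibody mouse 1, 2 or 4 and 5 without vehicle mouse 1), with the granzymes Gzmb and Gzma at -0.80 ± 0.34 and -0.78 ± 0.39. Markers of B, plasma and dendritic cells had 16 of 19 below 0 and 3 with an unadjusted p under 0.05 (median -0.42; count 1 without antibody mouse 4 and 8 without vehicle mouse 1). Clec9a, of cross-presenting dendritic cells, was at 216, 289.6 and 357 against 294, 449.8 and 638 (-0.66 ± 0.23), and Sdc1, which hepatocytes as well as plasma cells express, on the other side at 0.45 ± 0.19.

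Chemokines and their receptors had 26 of 28 below 0 (median -0.24), with Ccl17 at -0.99 ± 0.56. Antigen presentation genes had 11 of 17 below 0 (median -0.26), with Cd80 at -0.61 ± 0.39 and Ctss at -0.48 ± 0.36, and that median was 0.09 among codes 25 to 30. Interferon-stimulated genes did not share this direction: 20 of 32 were above 0 and the median was 0.05. It was -0.01 without antibody mouse 6 and -0.13 when libraries were scaled to 1 total. Oas2, an antiviral oligoadenylate synthetase, lay on the other side, at 689, 823 and 1029.7 against 873, 1345 and 1931 (-0.67 ± 0.20), with Oasl1 at 0.65 ± 0.36. Endothelial markers had 22 of 24 below 0 and 0 with an unadjusted p under 0.05 (median -0.44), but 13 without vehicle mouse 1. Ackr1, of venules, was at -1.13 ± 0.54 and Fcgr2b, of sinusoids, at -0.56 ± 0.32; antibody mouse 3 was lowest of the 12 on this list and vehicle mouse 6 highest (-1.45 and 1.26). Immediate early and heat shock genes had 18 of 20 below 0 (median -0.33), with Klf4 at -0.70 ± 0.38 and Klf2 at -0.57 ± 0.33.

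Of 22 markers of pancreas, muscle, fat, mesothelium and blood, 9 stayed under 10 normalized counts in all 12 livers and 2, Ins2 and Myh4, were at 0 throughout. Their summed level, carried by Car3, which male hepatocytes also express, was 40436 to 120444 with antibody and 16243 to 127126 with vehicle. Haemoglobin genes were highest in vehicle mouse 4. Car3 was at 0.99 ± 0.50 and Alas2, of haem synthesis, at 0.70 ± 0.34.

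Across the lists the same vehicle mice recurred. Vehicle mice 3, 4 and 6 were at the low end for metabolism and the high end for matrix, macrophage and signalling genes, vehicle mice 1 and 2 on the opposite sides, and vehicle mouse 5 near the middle. Antibody mice 1 to 4 lay on the side of vehicle mice 1 and 2 for most of these lists, and antibody mice 5 and 6 lay nearer to vehicle mouse 5. Mice 1 to 3 of each group were in the run of lower library codes, and mice 4 to 6 in the run of higher codes. This grouping of mice therefore largely followed the code runs, except for vehicle mouse 3 and antibody mouse 4. The part of the code runs in the grouping was not tested. Vehicle mouse 6 was the highest of the 12 mice for 11 of 42 lists and the lowest for 12, and vehicle mouse 1 was the lowest for 14. Antibody mice were less spread: the SD over mice of the list level was smaller with antibody in 37 of 42 lists, with a median SD of 0.26 against 0.53. Over all genes, 66.9% had a smaller SD with antibody (median 0.33 against 0.43 on the log2 scale). Without vehicle mouse 1 these shares were 53.1% of genes and 32 of 42 lists. No test of a difference in spread was made.

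**Figure D4:**
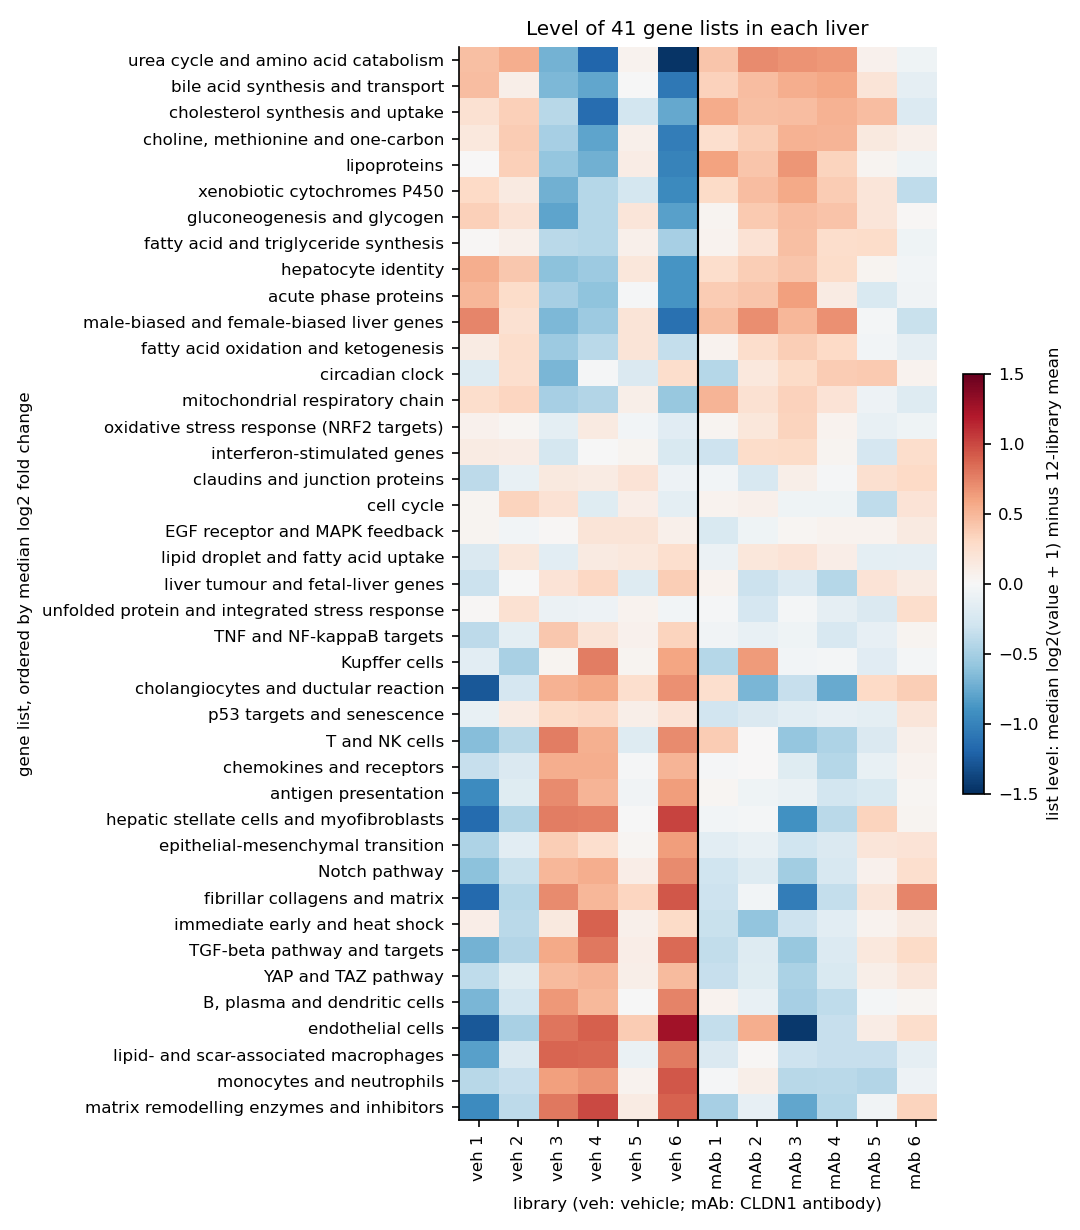
Rows are 41 gene lists ordered by their median log2 fold change, columns are the 12 livers, and the colour is the list level, the median over members of log2(value + 1) minus the mean of the 12 livers. Vehicle mice 3, 4 and 6 are blue in the metabolic lists at the top and red in the matrix and immune lists at the bottom, vehicle mouse 1 shows the opposite colours, and antibody mice 1 to 4 are red or pale in the lists at the top.

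Within each run of library codes, 3 antibody mice could be compared with 3 vehicle mice. Neither run gave a gene past the threshold (smallest limma adjusted p = 0.9997 among codes 25 to 30 and 0.0926 among codes 36 to 42), with 174 higher and 179 lower at an unadjusted p under 0.05 in the first and 1255 and 1723 in the second. Most list medians kept their sign but were smaller in codes 25 to 30. Those that turned there were lipid droplet, Kupffer cell, T and NK cell, antigen presentation and neighbouring tissue genes, and those that turned in codes 36 to 42 were NRF2, unfolded protein and integrated stress response, junction and cell cycle genes. Urea cycle genes were at 0.46 among codes 25 to 30 and 1.21 among codes 36 to 42, cholesterol genes at 0.42 among codes 25 to 30 and 1.00 among codes 36 to 42, lipid-associated macrophage genes at -0.21 among codes 25 to 30 and -0.80 among codes 36 to 42 and endothelial genes at -0.06 among codes 25 to 30 and -0.77 among codes 36 to 42. Lipoprotein, P450 and fatty acid synthesis genes were nearly alike in both, at 0.63 and 0.63, 0.52 and 0.59, and 0.45 and 0.47. A test of the difference itself, the interaction of treatment and code run, called 0 of 18624 genes (0%; 412 at an unadjusted p under 0.05, smallest limma adjusted p = 0.939). The runs themselves differed: 381 genes (2.05%) were higher and 339 (1.82%) lower in codes 36 to 42 than in codes 25 to 30, over both groups. Vehicle mice 1, 2 and 3 all fall in the first run, at first-component scores of -89.9, -53.5 and 54.1. Vehicle mice 4, 5 and 6 fall in the second, at 76.6, 7.49 and 94.8. The part of the code runs in the spread among vehicle mice was not tested.

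**Figure D5:**
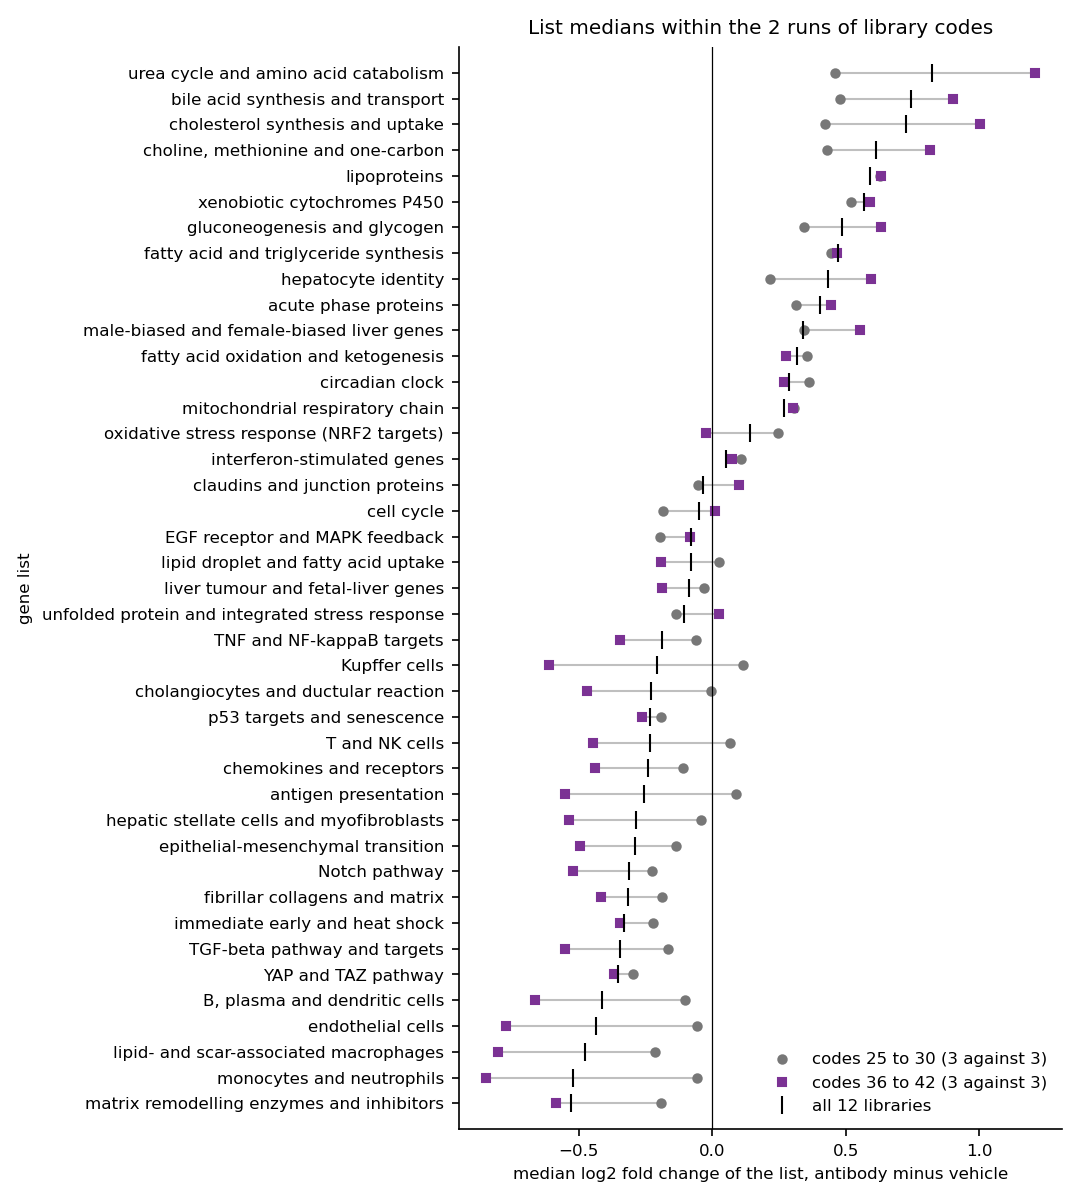
For 41 gene lists, the median log2 fold change of antibody minus vehicle among library codes 25 to 30 (grey circles), among codes 36 to 42 (purple squares) and over all 12 libraries (black ticks). The squares lie farther from 0 than the circles for most matrix and immune lists, and lists such as lipoproteins and cytochromes P450 have both close together.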

How the data were processed

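RNA from non-tumorous liver of 17 mice was sequenced, 6 with antibody, 6 with vehicle and 5 on regular diet. The deposited values are a signal per gene, normalized counts that the authors produced. The submitters' processing notes name Cufflinks 2.2.1 and the genome build mm10. Aligner, gene annotation and use of strand are not given in the sources used here. Low values stepped in nearly whole multiples of 1 fragment (97.7 to 98.2% of them), which gave the estimated depths, but the values are scaled between libraries and no count model was used. Of 52545 genes in the table, 17421 had no value above 0, and 99.7% of identifiers had a symbol.

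The filter kept 18624 genes, those reaching 10 in 5 or more libraries. Values were tested as log2(value + 1) in limma 3.58.1 (R 4.3.3) with the trend option, in 1 model of the 3 groups over the 17 libraries, with no covariate, and p-values were adjusted by Benjamini-Hochberg over all 18624 genes at a threshold of 0.05. Fold changes are on that scale and understate those of low genes. Library measures were compared by two-sided exact permutation tests. Library codes gave the within-run fits. Single libraries were left out in turn, and other alternatives are listed with the limits. For 141 genes a value near 0 stood beside a library of the same group at 100 or more. The naming rule left out such failed estimates, but those past the filter stayed in the test and the list counts. Trf, Srprb and mt-Atp8, given under other observations, are among them.

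Genes were named by rule: a panel of 18; the 10 with the smallest p per direction; the 6 with the largest fold change per direction among genes whose groups did not overlap; and the 2 members with the smallest p of each of 42 lists, plus 1 in the other direction where its p was under 0.05. The genes, lists and rules were chosen with earlier results of these data known. The fit was tested on simulated data with known changes, with noise drawn independently for each gene. The variation that the livers share across genes was not simulated, so the simulation cannot say how many changes could be detected here. Some genes that the rule named are not reported here.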

Additional observations from a re-analysis of the deposited data

Results flagged for a closer look

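A single library stood apart from the other 5 of its group, by Dixon's test at the 95% level, for 16 of 248 sets of 6 values. For values with a normal distribution, chance gives about 1 in 20, and the counts were not transformed. The sets covered the named genes and library measures such as depth, and all 16 that stood apart were normalized counts.

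Vehicle mouse 1 was apart for Notch1 (547), Far2 (213), Cyp2c54 (4042) and Inhba (1392). Vehicle mouse 3 was apart for Npas2 (369.8), vehicle mouse 4 for Afp (1090.0) and Thada (259.9), and vehicle mouse 6 for Gzma (114). Antibody mouse 5 was apart for Acta2 (4141) and Krt19 (2997), and antibody mouse 6 for Rbm24 (44.9), Ddit4 (554) and Me1 (1759). Antibody mouse 1 was apart for Ccl17 (97.9), antibody mouse 2 for Ifitm6 (51.9) and antibody mouse 3 for Sdc1 (9692).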

How the results depend on the processing

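No gene passed the limma threshold under any setting except these: with no filter on low values 2 genes passed, both lower (Gm37170 and Gm19026, named after their values were seen), and with weights per library, chosen after seeing the data, 4877 passed. Leaving out 1 library gave 0 genes each time (smallest adjusted p from 0.207 without vehicle mouse 1 to 0.998 without vehicle mouse 6). With the mouse number as a replicate block, 0 genes passed (limma smallest adjusted p = 0.545, 936 higher and 722 lower at an unadjusted p under 0.05). The labels do not say that a number pairs mice. Correlations of same-numbered deviations were 0.137, 0.091, -0.202, -0.139, 0.028 and 0.656.

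The log2 fold changes of these named genes turned. Among codes 25 to 30, Cldn1 was at -0.13, Acta2 at -0.25, Timp1 at 0.12, Tgfb1 at 0.10, Yap1 at -0.21 and Trem2 at 0.024. Among codes 36 to 42, Krt19 was at -0.13 and Afp at -0.50. With libraries scaled to 1 total, Yap1 was at -0.18, Krt19 at -0.0047 and Afp at -0.066, and after quantile normalization Yap1 was at -0.057. With weights per library Krt19 was at -0.50. Leaving out 1 library gave -0.075 (without vehicle mouse 6) to 0.52 for Cldn1, -0.33 (without antibody mouse 5) to 0.41 for Acta2, -0.24 to 0.033 (without antibody mouse 1) for Notch1, -0.066 (without vehicle mouse 6) to 0.11 for Yap1, -0.29 (without vehicle mouse 1) to 0.41 for Krt19, and -0.095 (without vehicle mouse 3) to 0.44 (without vehicle mouse 4) for Afp. The cause was not tested. List medians turned for 5 of 42 lists among codes 25 to 30, 4 among codes 36 to 42, 1 with a filter of 50 in 5 libraries (lipid droplet genes), 2 with 1 total per library (NRF2 and interferon-stimulated genes), 2 after quantile normalization (NRF2 and cell cycle genes) and at most 2 without any 1 library. Depth is an estimate, so no interval on single values was given.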

Other observations

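Several further genes were uneven among the mice. Cyp2b10 belongs to the list of xenobiotic cytochromes and Trf to that of hepatocyte identity. All were chosen after their values were seen, and none passed after adjustment. Ighg1, the constant region of an immunoglobulin G subclass, was at 344 to 2481 normalized counts in the 6 antibody mice (median 1693), against 33.4 to 7714 in the vehicle mice (median 167). Vehicle mouse 4, at 7714, was highest of all for Ighg1, and vehicle mouse 6 was next among vehicle mice at 899.7. The log2 fold change of Ighg1 was 2.39 ± 1.16 (limma adjusted p = 0.659). Igha, the constant region of immunoglobulin A, was also highest in vehicle mouse 4, at 35081, and lay between 43.5 and 893 in the antibody mice.

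Pcdh20, a protocadherin of cell adhesion, was at 4.01 to 42.8 in the antibody mice and 0 to 9.85 in the vehicle mice (log2 fold change 2.70 ± 0.77, limma adjusted p = 0.659), with values this low resting on few reads. Fgf23, a hormone of phosphate balance, reached 706 in vehicle mouse 6, 227 in mouse 3 and 168 in mouse 4 but stayed at 1.53 to 29.7 in the antibody mice. Cyp2b10, a cytochrome induced by xenobiotics that has near-identical relatives, stood at 522 in vehicle mouse 4 and 416 in vehicle mouse 6, against 10.7 or less in the antibody mice. Trf, which encodes transferrin, was listed at 0 in vehicle mice 1, 2 and 3 and antibody mouse 3, and at 341997 or more in the other 8 livers. Srprb, the gene beside it, and mt-Atp8 were listed at 0 in the same 4 livers.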
